A study of Mus musculus with 3 samples.

Results

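The cells described here are the T cells of the mouse anorectal junction, where colonic columnar epithelium gives way to anal squamous epithelium. They are the cells that the authors' deposited cell table names T cells: 458 of 37080 cells in all, with 219 of 11037 on day 0, 118 of 14376 on day 7 and 121 of 11667 on day 42. Each day is 1 single-cell RNA library from tissue pooled from 5 C57Bl/6 mice, without any genetic change stated in the labels. Day 0 mice were untreated and their histology is labelled normal. The mice of the other days were given 3% DSS (dextran sulfate sodium, which damages the intestinal epithelium and provokes colitis) to drink for 6 days, and the labels call their tissue severely colitic on day 7 and recovered on day 42. The mice were bought at 6 weeks of age, and cells were freed with trypsin and cleared of dead cells with Annexin V before 10x Chromium 3' libraries were made. The 5 mice of a day cannot be told apart within a library. A difference between days is therefore a difference between 3 libraries, and the intervals given below are 95% intervals that cover counting error only.

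T cells recognise antigen through the T cell receptor (TCR). A receptor is built either from an alpha and a beta chain (constant parts Trac, Trbc1 and Trbc2) or from a gamma and a delta chain (Tcrg-C1 and Trdc among others), and it signals through the CD3 proteins Cd3d, Cd3e and Cd3g. Barrier linings hold resident T cells of both kinds, together with innate lymphoid cells and natural killer (NK) cells, which share many transcripts with T cells but carry no rearranged receptor. Mast cells and basophils are granule-filled cells of another lineage, known by the IgE receptor (Fcer1a, Ms4a2), the transcription factor Gata2 and the granule proteases Cpa3, Mcpt4 and Mcpt8.

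Levels below are UMIs (unique molecular identifiers, 1 per captured RNA molecule) summed over the T cells of a library and given per 1e+06 of their UMIs (CPM). The T cells held 552558 UMIs on day 0, 331716 on day 7 and 199353 on day 42, so 1 UMI was worth 1.81, 3.01 and 5.02 CPM. Median UMIs per T cell were 2064, 2260 and 1393, against 9168, 11481 and 6542 per keratinocyte. The largest cell gave 2.69%, 6.47% and 2.77% of the T cell UMIs. Of 36941 barcodes, 139 occurred in more than 1 library, and 7 T cells carried such a barcode. The authors' clustering put 204, 107 and 115 T cells in its cluster 18 and 15, 11 and 6 in cluster 28.

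T cells made up 1.98% of all cells on day 0 (1.73 to 2.26), 0.821% on day 7 (0.680 to 0.982) and 1.04% on day 42 (0.861 to 1.24). The day 0 interval lies above both others. The share among leukocytes moved further, since the neutrophil annotation held 5 cells on day 0 and 1513 on day 7. Among the 4 leukocyte annotations (T cells, B cells, Macrophages/APCS and Neutrophils) T cells were 68.4% on day 0, 6.14% on day 7 and 19.4% on day 42. With neutrophils left out of the denominator the share was 69.5%, 28.9% and 69.1%, so on that count day 42 lay at the day 0 level. A share depends on every other cell that was recovered, and whether T cell numbers in the tissue differed was not measured.

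Taken over all its cells, the annotation held the T cell markers far above all other cells in every library. T cells are named by such genes, so their levels describe the annotation and do not test it. Cd3g, a CD3 chain (Ensembl gene ENSMUSG00000002033, GRCm38 chr9:44969572-44980431, minus strand), stood at 671 CPM (605 to 743) in T cells on day 0, 889 (791 to 997) on day 7 and 1204 (1056 to 1366) on day 42. All other cells together held at most 0.846 CPM of it. Cd3d (chr9:44981786-44987339, plus strand) stood at 351, 522 and 562 CPM, and Cd3e (chr9:44998740-45009627, minus strand) at 188, 226 and 246 CPM. Trac (chr14:54220521-54224206, plus strand) stood at 177, 178 and 276 CPM. Nkg7 (chr7:43437073-43438249, plus strand), a granule membrane protein of cytotoxic lymphocytes, stood at 518, 588 and 702 CPM, with at most 0.356 CPM in all other cells. The 3 CD3 genes, Trac and Nkg7 followed the same order of levels, lowest on day 0 and highest on day 42, although several neighbouring intervals overlapped, those of Cd3e in all 3 libraries. Trbc2 departed from this order and was lowest on day 7, at 604 CPM (541 to 673) on day 0, 488 (416 to 569.6) on day 7 and 692 (582 to 818) on day 42.

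**Figure D1:**
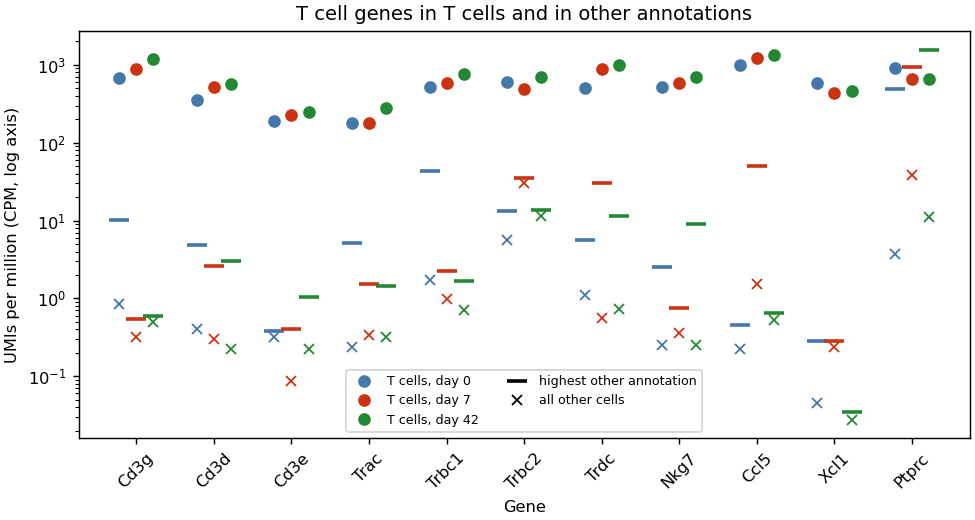
CPM (log axis) of 11 T cell genes in the T cells of each day (circles), in the other annotation of at least 50 cells where the gene was highest (bars) and in all other cells summed (crosses). T cells held 671 to 1204 CPM of Cd3g against at most 0.846 CPM in all other cells, whereas Ptprc was higher in neutrophils than in T cells on day 7 (931 against 657 CPM) and day 42 (1567 against 667 CPM).

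The genes with the highest T cell level over all other cells, taken as the mean log2 ratio of the 3 libraries, were Ccl5 (6.79), Rgs1 (6.64), Cd3g (6.42), Trdc (6.18) and Nkg7 (5.89). They were ranked on the same cells that the annotation defines, so this is a description of the annotation. Ccl5, a chemokine of cytotoxic and memory lymphocytes, stood at 1006, 1224 and 1339 CPM on day 0, day 7 and day 42. Rgs1, which dampens chemokine receptor signals and is high in resident T cells, stood at 1137, 1348 and 1465 CPM. Further genes of the leading 20 were the interleukin 2 and 7 receptor chains Il2rb and Il7r, the residence chemokine receptor Cxcr6, the chemokine Xcl1 and the lymphotoxin gene Ltb. Trbc2 was the weakest marker at the level of single cells: 8.14% of keratinocytes had a UMI of it on day 0 and 23.1% on day 7, so a lone Trbc2 UMI does not mark a T cell. Trbc1 and Trbc2 are near-identical copies whose reads may be split between them, and their separate values are uncertain.

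By single cells, the annotation was broader than cells with a measured receptor. A UMI of at least 1 of 8 TCR and CD3 genes (Cd3d, Cd3e, Cd3g, Trac, Trbc1, Trbc2, Trdc and Tcrg-C1) was present in 191 of 219 T cells on day 0 (87.2%), 92 of 118 on day 7 (78.0%) and 109 of 121 on day 42 (90.1%). A UMI of a CD3 chain was present in 115, 61 and 80 cells (52.5%, 51.7% and 66.1%). In 63, 22 and 21 cells the receptor call rested on Trbc1 or Trbc2 alone. The cells without any of the 8 genes numbered 28, 26 and 12. They were shallower than the rest, with a median of 1564, 1928 and 924 UMIs against 2138, 2347 and 1435, and how many of them lacked a UMI by depth alone was not tested.

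Trac and Trdc separated the cells with a measured chain. Trac without Trdc was found in 52, 26 and 33 cells on day 0, day 7 and day 42 (23.7%, 22.03% and 27.3%), and Trdc without Trac in 33, 22 and 25 cells (15.1%, 18.6% and 20.7%), while both were found in 2, 4 and 3 cells. Trdc (chr14:54142851-54148868, plus strand), the delta chain constant gene, stood at 512 CPM (454 to 575) on day 0, 898 (799 to 1006) on day 7 and 998 (864 to 1147) on day 42. Its level was 1.75 times the day 0 level on day 7 (1.49 to 2.07) and 1.95 times on day 42 (1.62 to 2.34). The share of cells with a Trdc UMI moved less. With every cell thinned to 1000 UMIs and shallower cells left out (24, 10 and 31 cells), it was 16.9% on day 0 (11.9 to 22.9), 23.1% on day 7 (15.6 to 32.2) and 18.9% on day 42 (11.4 to 28.5), and these intervals overlap. Unthinned, the share was 15.98%, 22.03% and 23.1%, and in thinned keratinocytes it was at most 0.0914%. Among fibroblasts, unthinned, it was 0.418% on day 0, 7.28% on day 7 (23 of 316 cells, 4.67 to 10.7) and 1.35% on day 42, and the part of such transcripts in the T cell level was not tested.

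The 89 cells with a Trdc UMI all carried a CD3 UMI and had a set of genes of their own. A Trbc1 or Trbc2 UMI was also present in 73 of the 89, so these cells did not lack beta chain transcripts. Tcrg-C1, a gamma chain constant gene with near-identical copies, was found in 64 of 89 against 24 of 369 other T cells, and the delta variable segment Trdv4 in 35 of 89 against 8 of 369. Cd163l1, a scavenger receptor known from interleukin 17-producing gamma delta T cells, was found in 32 of 89 cells and in 2 of 369 others. Il17a, the cytokine itself, was detected in 21 T cells, 16 of which had a Trdc UMI. Il17a stood at 138 CPM on day 0, 193 on day 7 and 115 on day 42, in 9, 6 and 6 cells. On day 7, 1 cell held 56 of its 64 UMIs. No cell with a Trdc UMI had a UMI of Cd4, Foxp3 or Tnfrsf4.

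The authors' cluster 28 was almost wholly of this kind. Of its 32 cells, 31 had a Trdc UMI and 32 a Cd3g UMI, and 6.85%, 9.32% and 4.96% of T cells lay in it on day 0, day 7 and day 42. Against cluster 18, and as a description because the clusters were drawn from these genes, Trat1 stood at 1541 against 37.0 CPM, the pore-forming protein Prf1 at 620 against 31.2 CPM and Cd7 at 2232 against 217 CPM. Trat1 stabilises the receptor complex at the cell surface. No cell of cluster 28 had a UMI of Ccl4, Foxp3, Ctla4 or Il17a.

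The coreceptors were detected in few cells. Cd4 was found in 14 of 219 T cells on day 0, 6 of 118 on day 7 and 7 of 121 on day 42, and Cd8a or Cd8b1 in 8, 7 and 7 cells. No cell had UMIs of both. The upper limits of the exact intervals, 1.67% on day 0, 3.08% on day 7 and 3.00% on day 42, concern cells with both UMIs detected, and at this sparse detection they set no limit on cells that express both. Cd8a itself stood at 9.05 CPM (2.94 to 21.1) on day 0, 33.2 (16.6 to 59.3) on day 7 and 60.2 (31.1 to 105) on day 42, from 5, 11 and 12 UMIs. The intervals of day 0 and day 42 do not overlap, but the counts are small. Its partner chain Cd8b1 did not follow it, at 25.3, 18.1 and 25.1 CPM with overlapping intervals, in 8, 4 and 2 cells. Of 13 cells with a Cd8a UMI, 11 had a Trac UMI and 1 a Trdc UMI.

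Foxp3, the transcription factor of regulatory T cells, marked 10, 5 and 8 cells. Among these 23 cells, Ctla4, an inhibitory receptor, was found in 20 and the costimulatory receptor Tnfrsf4 in 18, against 45 and 16 of 435 other T cells. A CD3 UMI was present in 20 of the 23. Foxp3 stood at 25.3 CPM (13.9 to 42.5) on day 0, 30.1 (14.5 to 55.4) on day 7 and 70.2 (38.4 to 118) on day 42, with overlapping intervals. Ctla4 stood at 114 CPM (87.6 to 146) on day 0, 241 (191 to 300.2) on day 7 and 186 (131 to 256) on day 42. The day 7 interval of Ctla4 lies above that of day 0, while Tnfrsf4 was lower on day 7, at 39.2 against 99.5 CPM.

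Ncr1, the NK cell receptor NKp46 that is also found on some innate lymphoid cells, marked 18, 8 and 9 cells. Of these 35 cells, 5 had a CD3 UMI and 3 a Trac UMI, whereas 29 had a Trbc1 or Trbc2 UMI. A UMI of any CD3 chain was present in 52.5%, 51.7% and 66.1% of all T cells on day 0, day 7 and day 42. In the T cells without Ncr1, 219 of 423 had a UMI of Cd3g, where Cd3d and Cd3e were not counted. The chemokine gene Xcl1 was found in 31 of the 35 Ncr1 cells. Ncr1 itself stood at 59.7, 42.2 and 65.2 CPM on day 0, day 7 and day 42, with overlapping intervals. The 126 cells with a UMI of Gata3, the transcription factor of type 2 lymphocytes, also had few CD3 UMIs: 23 of 77 cells on day 0, 7 of 22 on day 7 and 12 of 27 on day 42. By contrast 98 of the 126 had a Trbc1 or Trbc2 UMI. Trbc transcripts are known from lymphoid cells without a complete receptor, and which of these cells are T cells was not tested.

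**Figure D2:**
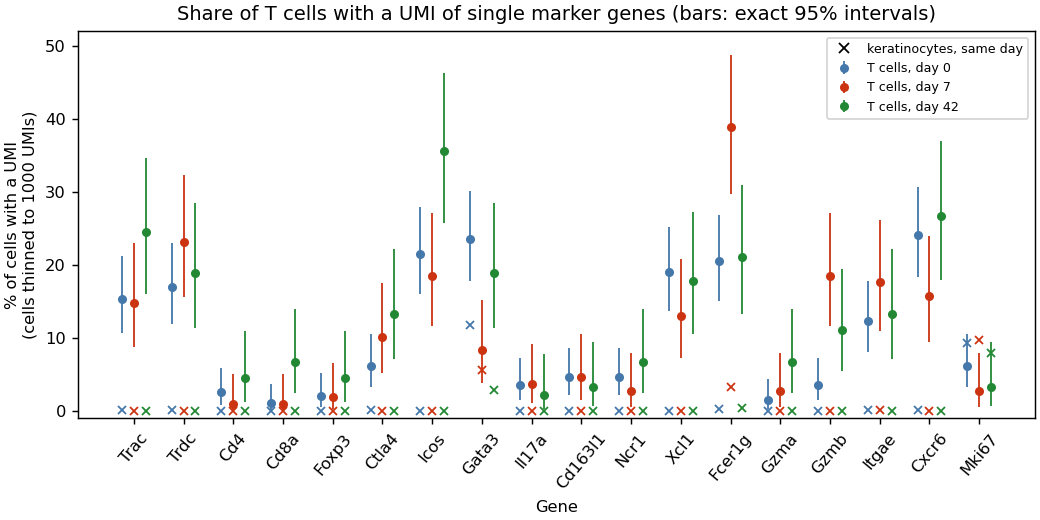
Percent of T cells with a UMI of each of 18 single marker genes at each day, after thinning every cell to 1000 UMIs (circles, bars are exact 95% intervals), and the same share in keratinocytes (crosses). Gzmb goes from 3.59% on day 0 to 18.5% on day 7 and Gata3 from 23.6% to 8.33%, while Trdc, Xcl1 and Cxcr6 have overlapping intervals.

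On day 7 a group of cells under the T cell name carried genes of another lineage. UMIs of at least 1 of 8 mast cell and basophil genes (Cpa3, Fcer1a, Mcpt4, Mcpt8, Tpsb2, Cma1, Ms4a2 and Gata2) were found in 0 of 219 T cells on day 0, 16 of 118 on day 7 (13.6%, 7.95 to 21.1) and 3 of 121 on day 42. On day 7 they were found in 15 of the 26 cells without a TCR or CD3 UMI (57.7%, 36.9 to 76.6) and in 1 of the 92 cells with such a UMI (1.09%). Their depth was like that of the rest, with a median of 2189 against 2292 UMIs. The summed level of the 9-gene mast cell and basophil list, which adds Kit, was 101 CPM on day 0, 1206 on day 7 and 216 on day 42 in T cells, against 9.99, 5.42 and 4.43 CPM in all other cells. On day 0, 8 of its 9 genes had no UMI in T cells and Kit gave all of the signal. On day 7, 1 cell held 255 of the 400 UMIs of the list in T cells.

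Within the 16 cells of day 7, Hdc, the enzyme that makes histamine, had a UMI in 16, Gata2 in 13, Cpa3, a protease of their granules, in 12 and Ms4a2, the beta chain of the IgE receptor, in 10. Mcpt8, a basophil protease, was found in 8 of them, and so was Fcer1a, the alpha chain of the IgE receptor. The proteases Mcpt4, Cma1 and Tpsb2, which are known from connective tissue mast cells, had 94, 60 and 46 UMIs, all in 1 cell. Tyrobp, an adaptor of innate receptors, was found in all 16, whereas Ptprc, the leukocyte marker CD45, was found in 3. These cells are named here by their genes only.

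**Figure D3:**
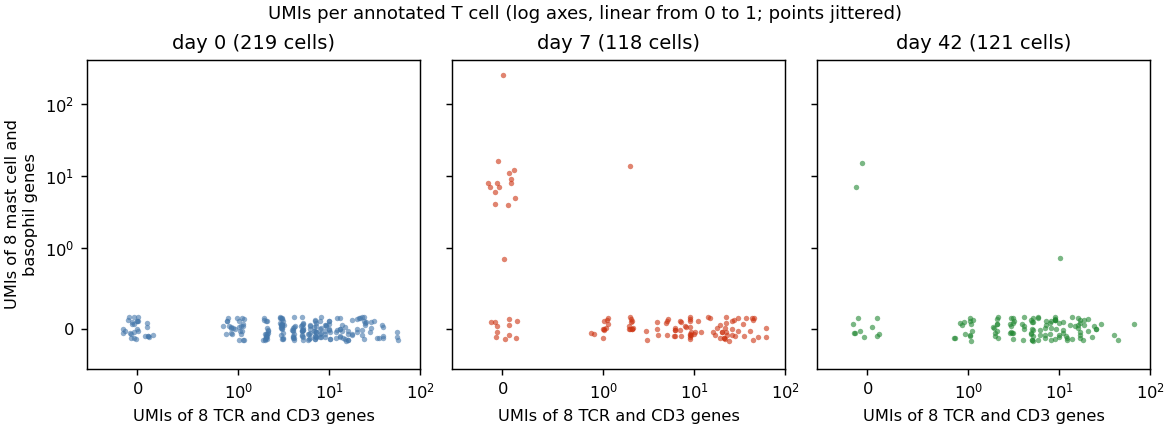
Each point is 1 annotated T cell, with its UMIs of 8 TCR and CD3 genes on the x axis and its UMIs of 8 mast cell and basophil genes on the y axis (log axes, linear from 0 to 1, points jittered). On day 0 no cell leaves the baseline, while 15 of the 16 cells above it on day 7 sit at 0 on the x axis.

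The promoters of 2 CD3 genes and of 2 of the mast cell and basophil genes are printed because these genes separate the day 7 cells. Each is the 250 bases before the gene's start, 5′ to 3′ on the gene's strand, from RefSeq on GRCm38.p6. Capitals mark matches on either strand to AGATAA, a motif bound by GATA factors such as Gata2 and Gata3, or to TGTGGT, a RUNX motif. Cd3g and Cd3d lie next to each other and are read in opposite directions.
Cd3d (chr9:44981536-44981785, plus strand): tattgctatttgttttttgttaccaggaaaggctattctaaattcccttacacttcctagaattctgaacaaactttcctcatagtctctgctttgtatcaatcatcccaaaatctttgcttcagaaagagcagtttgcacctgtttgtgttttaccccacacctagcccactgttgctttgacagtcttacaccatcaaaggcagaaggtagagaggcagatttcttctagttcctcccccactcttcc
Cd3g (chr9:44980432-44980681, minus strand): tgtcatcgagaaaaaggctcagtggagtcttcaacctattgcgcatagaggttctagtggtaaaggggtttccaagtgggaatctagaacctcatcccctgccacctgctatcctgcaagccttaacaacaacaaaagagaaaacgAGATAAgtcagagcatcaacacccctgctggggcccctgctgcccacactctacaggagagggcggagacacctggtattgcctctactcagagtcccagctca
Cpa3 (chr3:20242182-20242431, minus strand): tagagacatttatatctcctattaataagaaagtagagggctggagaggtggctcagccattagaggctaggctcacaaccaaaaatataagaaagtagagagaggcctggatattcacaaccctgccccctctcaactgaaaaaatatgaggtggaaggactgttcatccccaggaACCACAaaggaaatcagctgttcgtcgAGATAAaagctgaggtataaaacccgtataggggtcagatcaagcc
Ms4a2 (chr19:11623720-11623969, minus strand): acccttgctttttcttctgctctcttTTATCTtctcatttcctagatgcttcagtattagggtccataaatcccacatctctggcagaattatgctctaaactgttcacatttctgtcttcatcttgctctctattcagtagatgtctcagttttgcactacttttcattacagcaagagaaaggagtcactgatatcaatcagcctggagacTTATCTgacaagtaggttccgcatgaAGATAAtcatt

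AGATAA matched 3 times in the Ms4a2 window, 224, 37 and 11 bases before the start, 1 time in that of Cpa3, 46 bases before it, and 1 time in that of Cd3g, 104 bases before it. Cd3d and Cd3e had no match. Over the mast cell and basophil genes the motif was in 3 of the 7 promoters with an entry (Tpsb2 is the gene without), against 10.3% of 27025 promoters of the same length. TGTGGT was in 14.2% of all promoters and in 4 of the same 7 (Cpa3, Fcer1a, Mcpt4 and Mcpt8), in that of Cpa3 73 bases before the start. Motifs of NF-kB (1.17% of promoters), AP-1 (TGANTCA, 6.87%) and CRE (TGACGTCA, 1.62%), searched on both strands as well, had no match in the 4 printed windows. A match is a run of letters and not a measured binding site.

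Among genes that reached 50 CPM in T cells of the compared libraries, and with 10 CPM added to both levels, 130 of 3331 genes (3.90%) were higher by at least 2-fold in T cells on day 7 than on day 0, and 103 (3.09%) were lower. With 1 library per day this is a count of ratios and not of tested genes. A gene that reached the minimum on 1 of the compared days only could pass in 1 direction only, among all genes and in the lists below. The genes leading the higher side, among those more abundant in T cells than in all other cells, were Il1b, Ifitm1, Hdc, Gzma, Ccl6, Ccl9, Mcpt4, Ccl4, Ccl3 and Il6. For each of these except Gzma, most day 7 UMIs came from the 16 cells described above, and Mcpt4 was among the genes that chose those cells.

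Ccl4 (chr11:83662584-83664683, plus strand), a chemokine that draws monocytes and T cells, stood at 92.3 CPM (68.7 to 121) on day 0, 2689 (2515 to 2871) on day 7 and 316 (243 to 404) on day 42. On day 7 the 16 cells held 846 of its 892 UMIs, and the other 102 T cells stood at 156 CPM. The neighbouring chemokine Ccl3 (chr11:83647844-83649355, minus strand) stood at 30.8, 868 and 211 CPM, and the 16 cells held 266 of its 288 day 7 UMIs. On day 42, 1 cell held 41 of 42 Ccl3 UMIs and 1 cell 45 of 63 Ccl4 UMIs. On day 0 Ccl4 was found in 10 cells, 7 of which had an Ncr1 UMI. On day 7 it was found in 21 cells, of which none had an Ncr1 UMI and 15 a mast cell or basophil UMI.

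Hdc had no UMI on day 0, 209 on day 7 and 16 on day 42, a level at least 116-fold higher on day 7 against a floor of 3 counts. The 16 cells held 198 of the 209. They also held 64 of 65 UMIs of Il6, 94 of 94 of the chemokine Ccl9, 150 of 156 of Ccl6, 51 of 51 of the growth factor Csf1 and 56 of 60 of Osm, an inflammatory cytokine. Il1b, the interleukin 1 beta gene, had no UMI on day 0 and stood at 684 CPM on day 7, at least 126-fold higher, with 155 of 227 UMIs in the 16 cells. In cells with a TCR or CD3 UMI its level was 265 CPM on day 7, and in all other cells of the library 503 CPM.

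**Figure D4:**
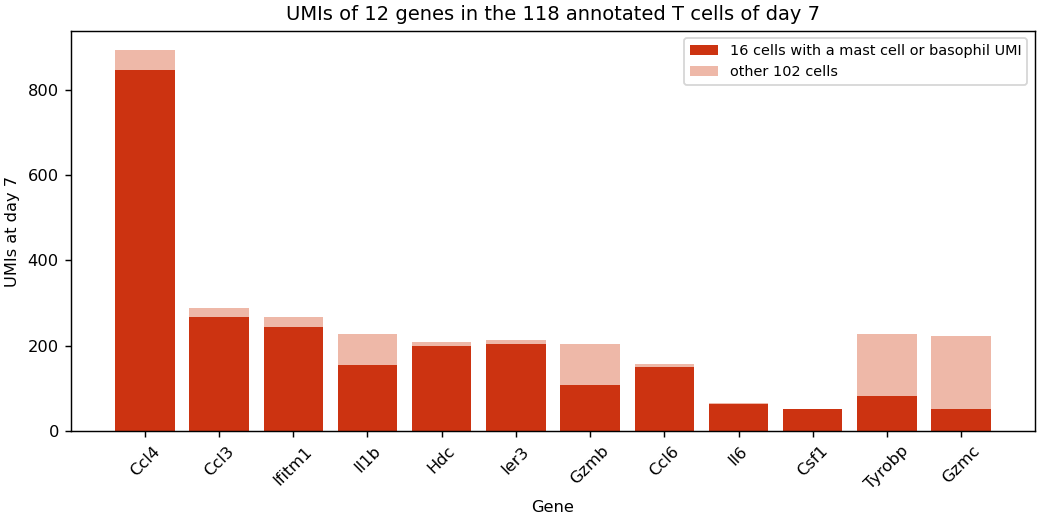
UMIs of 12 genes in the 118 annotated T cells of day 7 (bars from 0), split into the 16 cells with a mast cell or basophil UMI (dark) and the other 102 (light). Of the Ccl4 UMIs 846 of 892 fall in the 16 cells, of Gzmb 108 of 203 and of Gzmc 52 of 222.

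Among cells with a TCR or CD3 UMI, 107 of 3310 genes (3.23%) were higher and 116 (3.50%) lower by at least 2-fold on day 7. Gzmb (chr14:56258838-56262260, minus strand), a protease that kills target cells, was higher in them. Over all T cells it stood at 59.7 CPM (41.1 to 83.9) on day 0, 612 (531 to 702) on day 7 and 266 (199 to 348) on day 42, so that the intervals do not overlap. The 16 cells held 108 of its 203 day 7 UMIs. Without them its level was 322 CPM on day 7 and the log2 ratio against day 0 was 2.25, and in cells with a CD3 UMI the log2 ratio was 1.89. The thinned share of T cells with a Gzmb UMI was 3.59% on day 0 (1.46 to 7.26), 18.5% on day 7 (11.7 to 27.1) and 11.1% on day 42 (5.46 to 19.5), and unthinned it was 6.85%, 22.03% and 14.9%. In thinned keratinocytes it was at most 0.035%. Of the 26 cells with a Gzmb UMI on day 7, unthinned, 9 were among the 16 cells and 17 among the other 102.

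Of 19 measured genes of the cytotoxic and NK receptor list, 5 were higher by at least 2-fold on day 7, beside 3.90% of all genes, and none lower, with a median log2 ratio of 0.49 beside -0.05 over all genes. In cells with a TCR or CD3 UMI it was 5 of 18, beside 3.23% of all genes, with a median of 0.50. These cells still include 1 with a mast cell or basophil UMI, which held 95 of their 109 Ccl4 UMIs. Over all T cells the 5 were Gzma, Gzmb, Ccl3, Ccl4 and Tyrobp, and the receptor adaptor Fcer1g was close to the threshold at 889 against 458 CPM. Without the 16 cells Ccl4 and Tyrobp were below 2-fold, with log2 ratios of 0.70 and 0.87, and Ccl3 was just past it at 1.05. That Ccl3 ratio rested on 22 UMIs in 2 of 102 cells on day 7 against 17 UMIs in 3 cells on day 0. Gzma (chr13:113093825-113100981, minus strand), a granule protease, rested on very few cells. It had 3 UMIs in 3 cells on day 0 and 240 UMIs in 3 cells on day 7, of which 1 cell held 227. On day 42 it had 177 UMIs in 8 cells, of which 1 cell held 90. Gzmc (chr14:56231441-56234656, minus strand), another granzyme, stood at 494 CPM on day 0, 669 on day 7 and 115 (73.1 to 173) on day 42, and its day 42 level was 0.234 of that on day 0 (0.146 to 0.358). In 42 cells with a Gzmc UMI, 13 had an Ncr1 UMI and 12 a CD3 UMI.

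Ifng, Tnf and Csf2, cytokines that activate phagocytes, were lower on day 7. Of 11 measured genes of the cytokine and death ligand list 4 were lower by at least 2-fold (Ifng, Tnf, Csf2 and Tnfsf11) and 2 higher (Csf1 and Osm, the latter pair almost wholly from the 16 cells), beside 3.09% and 3.90% of all genes, with a median of -0.27. Ifng, Tnf and Csf2 reached the 50 CPM minimum on day 0 and not on day 7, and Csf1 and Osm on day 7 only. For these genes the minimum fixed the direction of the ratio. In cells with a TCR or CD3 UMI 2 of 8 were lower and none higher, beside 3.50% and 3.23%. Ifng (chr10:118441046-118445892, plus strand), the interferon gamma gene, had 92 UMIs in 26 cells on day 0, 9 in 6 cells on day 7 and 47 in 10 cells on day 42. This is 166 CPM (134 to 204), 27.1 (12.4 to 51.5) and 236 (173 to 314), and the day 7 level was 0.163 of that on day 0 (0.0722 to 0.323). The day 7 interval lies below both others, and in cells with a CD3 UMI the log2 ratio was -2.24. On day 42, 1 cell held 37 of the 47 UMIs, and in cells with a CD3 UMI Ifng was lower on day 42 than on day 0, with a log2 ratio of -1.12. Tnf stood at 54.3, 12.1 and 30.1 CPM and Csf2, a myeloid growth factor, at 50.7, 9.04 and 30.1 CPM. The Csf2 counts were small, with 28 UMIs in 17 cells on day 0, 3 in 2 cells on day 7 and 6 in 1 cell on day 42. The chemokine Ccl1 had 48 UMIs on day 0, none on day 7 (at least 9.61-fold lower) and 2 on day 42.

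Gata3 and Il5 of the type 2 list were lower on day 7 as well. Gata3 (chr2:9857078-9890034, minus strand) stood at 311 CPM (266 to 361) on day 0, 121 (86.1 to 164) on day 7 and 201 (143 to 273) on day 42. The share of T cells with a Gata3 UMI was 35.2%, 18.6% and 22.3%, and after thinning 23.6% (17.8 to 30.2), 8.33% (3.88 to 15.2) and 18.9% (11.4 to 28.5). Keratinocytes also carry Gata3, with thinned shares of 11.8%, 5.61% and 2.80%, and their part in the T cell share was not tested. Il5, the eosinophil growth factor, had 40 UMIs in 11 cells on day 0, none on day 7 (at least 8.004-fold lower) and 9 in 2 cells on day 42. Of 6 measured genes of the type 2 list, 2 were lower by at least 2-fold on day 7, beside 3.09% of all genes, and none higher, with a median of -0.72. In cells with a TCR or CD3 UMI 1 of 5 was lower, beside 3.50%. There Il5 was not counted, as it stood at 47.8 CPM on day 0, below the 50 CPM minimum. Over all T cells Il5 reached that minimum on day 0 and not on day 7, so it could only count as lower. The 14-gene innate lymphoid and NK cell list, which also holds Gata3, was lowest on day 7 too: its summed level in T cells was 2098 CPM on day 0, 1462 on day 7 and 2398 on day 42, against 379.7, 492 and 1126 CPM in all other cells. Of its 10 measured genes 2 were lower on day 7 and none higher, with a median of -0.54, and its part in the type 2 values was not tested. Il13 stood at 34.4 CPM (20.7 to 53.7) on day 0, 21.1 (8.48 to 43.5) on day 7 and 191 (135 to 262) on day 42. Its day 42 level was 5.54 times that of day 0 (3.12 to 10.2), and the 38 UMIs lay in 8 cells.

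Of 11 measured genes of the proliferation list, 5 were lower by at least 2-fold in T cells on day 7 (Ube2c, Top2a, Mki67, Birc5 and Pcna), beside 3.09% of all genes, and none was higher. The median log2 ratio was -0.98 in T cells. In all other cells the same genes had a median of 0.56, which is below 2-fold, with 0.12 for Mki67. Ube2c (chr2:164769898-164778822, plus strand), needed to leave mitosis, had 69 UMIs in 10 cells on day 0, 3 in 3 cells on day 7 and 11 in 3 cells on day 42. Mki67 (chr7:135689784-135716361, minus strand), the Ki-67 gene, stood at 161 CPM (129 to 198) on day 0, 54.3 (32.2 to 85.8) on day 7 and 100.3 (61.3 to 155) on day 42, in 19, 9 and 7 cells. Top2a, which untangles replicated DNA, stood at 148, 42.2 and 110 CPM. In cells with a TCR or CD3 UMI 5 of 11 were also lower, beside 3.50% of all genes, with a median of -0.97. The difference was smaller in cells with a CD3 UMI, where the list median was -0.44 on day 7. There Birc5, another mitotic gene, had a ratio of the opposite sign, 0.50, against -1.21 over all T cells. On day 42 the list median was -0.42 over all T cells and -0.49 in cells with a TCR or CD3 UMI, but 0.71 in cells with a CD3 UMI.

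**Figure D5:**
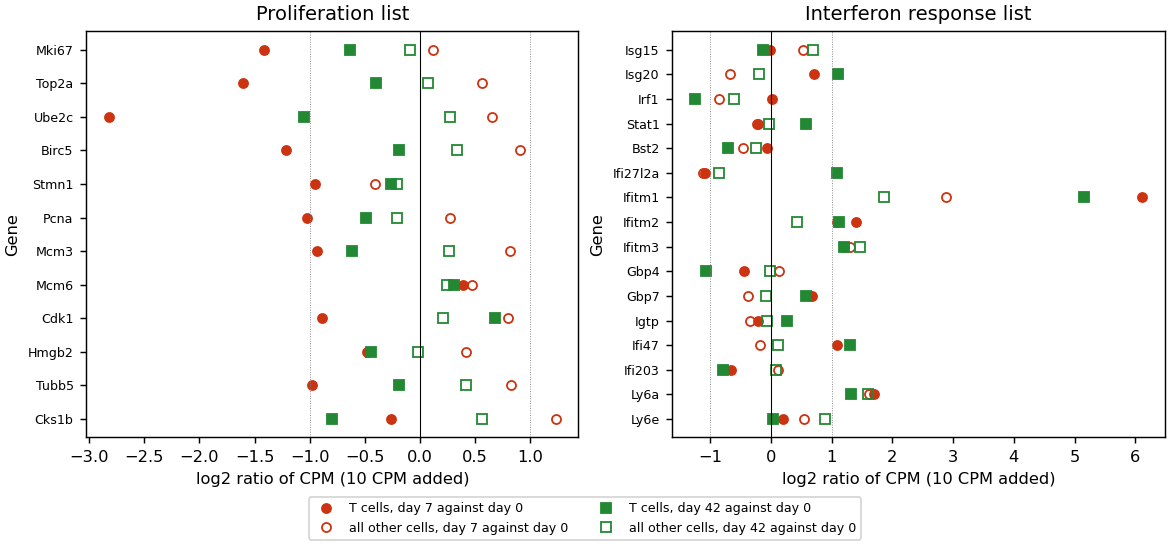
Log2 ratio of CPM (10 CPM added) against day 0 for the measured genes of the proliferation and interferon response lists, on day 7 (circles) and day 42 (squares), in T cells (filled) and in all other cells (open), with dotted lines at 2-fold. On day 7 the proliferation genes have a median of -0.98 in T cells and 0.56 in all other cells, and on day 42 the interferon response genes have a median of 0.58 in T cells and 0.03 in all other cells.

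The remaining genes that led the lower side on day 7 were Gadd45g, Maff, Pxdc1, Smc2 and Mir155hg. Gadd45g, a stress and activation gene that promotes interferon gamma production, stood at 130 CPM (102 to 164) on day 0, 21.1 (8.48 to 43.5) on day 7 and 85.3 (49.7 to 136) on day 42. Maff, a small MAF transcription factor, stood at 105, 30.1 and 55.2 CPM, and Mir155hg, the host of microRNA 155, at 103.2, 36.2 and 90.3 CPM. Cd28, the costimulatory receptor of T cells, was lower in both DSS libraries, at 183 CPM on day 0, 72.3 on day 7 and 115 on day 42. Of the 12 measured genes of the TCR and CD3 list none passed 2-fold on day 7 and 1 was higher on day 42, with medians of 0.21 and 0.46. This is close to the share of all genes (3.90% higher and 3.09% lower on day 7, 3.29% and 4.19% on day 42).

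On day 42, 113 of 3437 genes (3.29%) were higher and 144 (4.19%) lower by at least 2-fold in T cells than on day 0, and among cells with a TCR or CD3 UMI 97 of 3290 (2.95%) were higher and 142 (4.32%) lower. The leading higher genes were Gzma, Ifitm1, Il1b, Mcpt2, Wfdc17, G0s2, Mcpt1, Ccl3, Il13 and Gzmb. Mcpt1 and Mcpt2 are near-identical mast cell proteases whose reads may be split, and 20 and 25 of their 20 and 27 UMIs lay in 1 cell each. Il1b had 44 UMIs in 4 cells on day 42. Ifitm1, an antiviral membrane protein, had 1 UMI on day 0, 268 in 20 cells on day 7 and 82 in 13 cells on day 42. On day 7 the 16 cells held 243 of these, while on day 42 cells with a mast cell or basophil UMI held 26 of 82 and the log2 ratio without them was 4.65. Its ratio to day 0 on day 42 was 227 (39.7 to 9085), a wide interval because day 0 had 1 UMI.

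Interferon response genes were the list with most members past 2-fold on day 42 by count. Of 16 measured genes 7 were higher (Isg20, Ifi27l2a, Ifitm1, Ifitm2, Ifitm3, Ifi47 and Ly6a) and 2 lower (Irf1 and Gbp4), beside 3.29% and 4.19% of all genes. The median was 0.58 in T cells beside 0.03 over all genes and 0.03 for these genes in all other cells. By share, 2 lists of other cell types went further. Of 13 measured keratinocyte genes 5 were higher and 3 lower, and of 4 measured neutrophil genes 4 were higher. Ifitm2 stood at 168, 461 and 376 CPM and Ifitm3 at 50.7, 129.6 and 130.4 CPM on day 0, day 7 and day 42, so both were already higher on day 7. Ly6a, the Sca-1 antigen of activated T cells, stood at 90.5 CPM (67.2 to 119), 317 (259 to 383) and 241 (177 to 319). Its thinned share was 9.74%, 20.4% and 17.8%, but keratinocytes carry Ly6a in 21.0%, 39.8% and 43.8% of thinned cells, and their part in the T cell value was not tested. Ifi27l2a stood at 56.1, 21.1 and 130.4 CPM, lower on day 7 and higher on day 42. Irf1, a transcription factor of the same response, stood at 97.7, 99.5 and 35.1 CPM.

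Icos, the costimulatory receptor, stood at 271 CPM (230 to 319) on day 0, 256 (205 to 317) on day 7 and 497 (404 to 605) on day 42, and its day 42 interval lies above both others. The thinned share of T cells with an Icos UMI was 21.5% (15.99 to 27.98), 18.5% (11.7 to 27.1) and 35.6% (25.7 to 46.3), and 35.2%, 30.5% and 44.6% unthinned, with at most 0.035% in thinned keratinocytes. Havcr2, the inhibitory receptor TIM-3, had 3, 12 and 14 UMIs, or 5.43, 36.2 and 70.2 CPM, and its day 42 level was 12.9 times that of day 0 (3.61 to 70.2). Areg, a growth factor for epithelium, stood at 449, 377 and 833 CPM, and 1 cell held 66 of its 166 UMIs on day 42. Its log2 ratio of day 42 to day 0 was 0.88, but 0.15 without the 5 cells with most of its UMIs in each library. All other cells also held Areg, at 219.8, 314 and 478 CPM, a log2 ratio of 1.09, and their part in the T cell level was not tested. Cd7, a receptor of T and NK cells, stood at 226 CPM (188 to 269) on day 0, 407 (341 to 482) on day 7 and 446 (359 to 549) on day 42.

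The lower side of day 42 was led by Gzmc. Cxcr4, a homing receptor, stood at 118, 99.5 and 40.1 CPM, Tox, a transcription factor of exhausted and innate lymphocytes, at 105, 42.2 and 30.1 CPM, and Ptpn7, a lymphocyte phosphatase, at 136, 69.3 and 35.1 CPM. Zfp36l2, which destabilises messenger RNA, stood at 887 CPM (810 to 969) on day 0, 690 (604 to 786) on day 7 and 361 (283 to 455) on day 42, in 164, 81 and 49 cells. The immediate early receptor Nr4a3 stood at 261, 133 and 105.3 CPM. The other leading genes were Tnrc6a, Cbl, Per1 and Vars. S1pr1, the receptor by which T cells leave tissue, had 28 UMIs on day 0, 7 on day 7 and 1 on day 42, the last a ratio of 0.099 (0.00242 to 0.599).

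None of the 13 measured genes of the tissue residence list on day 7, or 12 on day 42, passed 2-fold, with medians of -0.46 and -0.35 beside -0.05 and 0.03 over all genes. With 3.90% of all genes higher and 3.09% lower on day 7, and 3.29% and 4.19% on day 42, a count of 0 is close to the share of all genes. In cells with a TCR or CD3 UMI 1 of the 13 was lower on day 7. Itgae, the integrin chain that binds E-cadherin, stood at 132, 163 and 176 CPM, and Cxcr6 at 304, 262 and 441 CPM. Cd69, a residence and early activation marker, stood at 431 CPM (378 to 489), 311 (253 to 377) and 246 (182 to 325), and Nr4a1, induced by receptor signals and by tissue digestion, at 641, 356 and 356 CPM. Of 22 genes of the immediate early and dissociation stress list, Ier3 was higher and Atf3 and Hspa1a were lower by at least 2-fold on day 7, beside 3.90% and 3.09% of all genes, with a median of -0.19 in T cells and -0.69 in all other cells. The 16 cells held 204 of 212 Ier3 UMIs. In cells with a TCR or CD3 UMI 6 of the 22 were lower, beside 3.50% of all genes, and the median was -0.61. Hspa1a, a heat shock protein, stood at 143, 33.2 and 176 CPM.

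Transcripts of other cell types were present in the T cells and moved between libraries. The 12-gene neutrophil list summed to 50.7 CPM on day 0, 4929 on day 7 and 647 on day 42 in T cells, against 113, 9524 and 870 CPM in all other cells. S100a8 and S100a9, the calprotectin genes of neutrophils and inflamed epithelium, led the day 7 ratios over all genes, at 3.62 and 12.7 CPM on day 0 and 1718 and 2366 CPM on day 7. On day 7, 1 cell held 336 of 570 S100a8 UMIs, and 1 cell held 987 of the 1635 UMIs of the neutrophil list. The 14-gene keratinocyte list summed to 1410, 4076 and 2438 CPM, against 13504, 28446 and 32634 CPM in all other cells, and 1 cell held 546 of its 1352 day 7 UMIs. The 16-gene macrophage and dendritic cell list summed to 299, 377 and 451 CPM, with 7, 7 and 6 of its genes at 0, among them C1qa, C1qc and Csf1r in every library. The part of such transcripts in the ratios of single genes was not tested.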

How the data were processed

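The deposited values are counts, whole UMIs per gene and cell that the authors deposited without normalization. The deposited cell table gives day, cluster, cell type and a size factor, a ratio of each cell's total to the geometric mean of all totals, which was not used. The submitters' processing notes name Cell Ranger 3.0.2 and mm10, and the annotation release is not given in the sources used here. Of 31053 genes, 30934 were found by identifier in GENCODE M21 (GRCm38), which gave the coordinates.

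UMIs of T cells were summed per library as CPM with exact Poisson 95% intervals, and shares have exact Clopper-Pearson 95% intervals. Log2 ratios had 10 CPM added, with a minimum of 50 CPM in 1 of the libraries for counts and lists. With 1 library per day, no test, p-value or standard error was computed. A gene at 0 was given a floor of 3 counts. Doublets were kept: Scrublet (scanpy 1.11.5) called 436, 0 and 292 cells, so the caller did not work on day 7, and the top 5% of its scores were left out as an alternative.

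The members, gene lists and settings were chosen with earlier results of these data known. Named genes were the 10 highest and 10 lowest ratios of each comparison at 100 CPM or more, among genes more abundant in T cells than in all other cells, the 5 highest without that condition, the 20 highest against other cells, the single markers and the list members. Mitochondrial, ribosomal and haemoglobin genes, immunoglobulins, Xist and Y-linked genes could not be named. Other genes, among them Il6, Csf1, Ccl1 and Cst6, were chosen after their values were seen.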

Additional observations from a re-analysis of the deposited data

Results flagged for a closer look

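Several genes moved in opposite directions in T cells and in all other cells of the same libraries. None of these differences was tested, as each day is 1 library. On day 7 against day 0 the log2 ratio of Ube2c was -2.82 in T cells and 0.65 in all other cells, that of Top2a was -1.60 and 0.56, and that of Smc2, a chromosome condensation gene, was -1.32 and 0.67. Pxdc1 had a ratio of -1.34 in T cells and 1.27 in all other cells. Csf1 had a ratio of 2.97 in T cells and -0.85 in all other cells, and the 16 cells with a mast cell or basophil UMI held all 51 of its day 7 UMIs. On day 42 Ifi27l2a had a ratio of 1.09 in T cells and -0.86 in all other cells.

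Outside the T cells, Trbc2 was detected in 23.1% of keratinocytes on day 7 against 8.14% on day 0, a signal in cells that should lack it. After thinning to 1000 UMIs the shares were 2.96% and 1.04%. Its cause was not tested.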

How the results depend on the processing

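With 1 pool per day and few T cells, counting error on day 42 is the widest and a gene without a UMI there may stand at up to 18.5 CPM (upper limit of the exact interval). No replicate could be left out, and no paired analysis was possible because each group has 1 sample. The cause was not tested for any value below. Settings using CD3 UMIs or leaving out cells with mast cell or basophil UMIs, with many S100a8 and S100a9 UMIs or with most UMIs in a library were chosen after seeing the data.

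The T cell share of 1.98% on day 0 was 2.57% after a filter on cells (1000 UMIs, 500 genes, 20% mitochondrial), 1.73% for T cells with a TCR or CD3 UMI and 1.04% with a CD3 UMI. The day 7 share was 0.640% and 0.424% under the last 2 settings, and the day 42 share 0.686% under the last. Counting any cell with at least 2 UMIs of Cd3d, Cd3e, Cd3g, Trac, Trbc1 and Trbc2 together, whatever its annotation, gave 2.56%, 7.35% and 1.96%. Trdc and Tcrg-C1 were not counted there, and Trbc2 in keratinocytes enters.

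Counts of genes past 2-fold, higher and lower on day 7 (130 and 103) and on day 42 (113 and 144), were 198 and 199, and 206 and 274, with totals without mitochondrial and ribosomal protein genes. They were 341 and 359, and 273 and 384, in thinned cells, 291 and 258, and 307 and 390, at 20 CPM, and 382 and 418, and 460 and 645, without a filter. A pseudocount of 1 CPM gave 181 lower on day 7, and the mean CPM per cell 180 higher on day 42. Cells with a CD3 UMI gave 232 lower on day 7, and 172 higher and 243 lower on day 42.

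Of the gene ratios past 2-fold over all T cells, 8 changed sign under some setting, and they and 1 list median follow. Leaving out the 5 top cells removes every day 42 UMI of Ccl4, Ier3 and Osm, found in 5, 2 and 4 cells, so those signs are fixed by the setting. On day 42, Ccl4 was -0.089 with a TCR or CD3 UMI, -0.0028 without mast cell or basophil UMIs and -1.32 without its 5 top cells. Ccl3 on day 42 was -1.51 with a TCR or CD3 UMI, -1.45 without the top Scrublet scores and -1.43 without mast cell or basophil UMIs. Ier3 on day 42 was -1.05 with a TCR or CD3 UMI, -1.55 without top Scrublet scores, -1.07 without mast cell or basophil UMIs, -0.26 with a CD3 UMI and -1.11 without its top cells. Osm without mast cell or basophil UMIs was -0.43 on day 7 and -0.32 on day 42, where it was also -0.55 without top Scrublet scores and -0.46 without its top cells. Csf1 on day 7 was -1.06 without mast cell or basophil UMIs and -1.05 with a CD3 UMI. With a CD3 UMI, Ube2c on day 42 was 1.23, Birc5 on day 7 was 0.50 and the proliferation median on day 42 was 0.71. That median was 0.0014 without top Scrublet scores. Over 201 gene ratios and all settings, 2271 values stayed within the counting interval of the main value or 0.1 of it, 323 moved and 19, past 2-fold over all T cells, changed sign. The values that stayed or moved include 113, over 51 ratios below 2-fold, of opposite sign, among them Ifng on day 42 (0.48, and -1.12 with a CD3 UMI). Over 96 shares of T cells with a marker UMI, 187 values left the counting interval of the main share and 197 stayed in it.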

Other observations

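Cells with several CD3 UMIs were rare outside the T cell annotation, unlike Trbc2 in keratinocytes and Trdc in fibroblasts of day 7. At least 2 CD3 UMIs were found in 16 of 10818 other cells on day 0, 7 of 14258 on day 7 and 8 of 11546 on day 42. Of these, 9, 4 and 7 were annotated keratinocytes.

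The T cell of day 0 with most UMIs (14865) held 568 of the 617 Cst6 UMIs of that library's T cells, with 8 UMIs of Trac and 1 each of Foxp3 and Cd4. Cst6 encodes a protease inhibitor of squamous epithelium. Its level in T cells was 1117, 169 and 70.2 CPM on day 0, day 7 and day 42.

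The interleukin 9 gene Il9 had 44 UMIs on day 0, all in 1 T cell without a TCR or CD3 UMI, and none on day 7 or day 42.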
